A study of Mus musculus with 8 samples.

Results

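Cd200r3 and Cd200r4 are 2 genes of the mouse CD200 receptor family that lie near each other on chromosome 16. Of the 8492 cytosines in the deposited table, 162 lay inside their RefSeq spans on build GRCm38. Membership was decided by position alone: 102 sites fell in Cd200r3 and 60 in Cd200r4. The table holds 162 sites on chromosome 16 in all, so every listed site of that chromosome belonged to one of these genes. The values are methylation levels from RNA bisulfite sequencing, in which unmodified cytosine is converted to uracil. A site's level is the fraction of its reads in which cytosine was retained.

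The libraries came from the poly(A) RNA of mast cells grown out of bone marrow of C57BL/6 mice with the genotype Tet2-/-, which lack a dioxygenase that oxidises 5-methylcytosine. Marrow cells were grown with IL-3 at 10 ng/ml and SCF at 5 ng/ml for 4 to 6 weeks, and the cells used were over 97.5% positive for FcεRI and c-Kit, the surface markers of mast cells. The sources used here give neither the age of the mice nor the way the Tet2 allele was deleted. The labels describe 2 biological replicates with 2 technical replicates each for this genotype and the same for wild-type cells. The authors' title line calls the listed sites group-specific for Tet2 deficiency, a choice made on these same libraries. Levels in wild-type cells were not analysed here, and none of the comparisons below is between genotypes. The table gives no read numbers, so depth is unknown and levels carry no counting interval. The lowest level in the table was 10%, so sites under that level are not seen.

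CD200 is a membrane glycoprotein that restrains myeloid cells through the inhibitory receptor CD200R1, encoded by Cd200r1, which recruits the adaptor Dok2 and through it RasGAP. Cd200r3 and Cd200r4 encode relatives with short cytoplasmic tails that lack this inhibitory signalling segment. They pair instead with DAP12, the adaptor encoded by Tyrobp, whose activation motif recruits the kinase Syk. Cd200r3 is known as a surface receptor of mast cells and basophils.

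Stretches before the start used for the promoter window of each gene are shown as an example of sequence that the paralogues share. They say nothing of likeness elsewhere, and whether reads were shared between the genes was not tested. For Cd200r4 the start used, 44820728, lies inside its RefSeq span, which begins at 44811650, so its stretch lies inside the span too. RefSeq sequence upstream of these starts (GRCm38.p6, plus strand for both) aligned over 99 bases without a gap, with 86 identical bases (86.9%). The stretch runs from 181 to 83 bases before the start in Cd200r3, at chr16:44943497-44943595, and from 107 to 9 bases before it in Cd200r4, at chr16:44820621-44820719. Capitals mark the 13 positions at which the genes differ.
Cd200r3: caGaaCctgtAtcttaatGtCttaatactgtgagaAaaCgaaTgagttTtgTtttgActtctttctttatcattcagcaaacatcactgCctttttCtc
Cd200r4: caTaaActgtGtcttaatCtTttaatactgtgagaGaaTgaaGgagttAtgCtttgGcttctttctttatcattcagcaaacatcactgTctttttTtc
The corresponding window of Cd200r2, the family member whose span lies between the spans of these genes, aligned with either of them over only 11 columns. No listed site lay in the start windows of Cd200r3 or Cd200r4. Sequence at the listed sites themselves was not used here, so their strand and sequence context were not analysed.

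Measured from the start used for each promoter window, the sites of Cd200r4 lay close, and nearly all those of Cd200r3 lay far. These starts are not like points of the spans. That of Cd200r3, 44943678, lies near the first base of its span, while that of Cd200r4, 44820728, lies further inside. Cd200r4 (gene 239849) spans 44811650 to 44839150, and its 60 sites ran from 44822859 to 44824820, which is 2131 to 4092 bases after the start used for its promoter window. Cd200r3 (gene 74603) spans 44943596 to 45058365, and its 102 sites ran from 44960174 to 45012102, or 16496 to 68424 bases after the start used. The Cd200r3 span of 114770 bases joins 4 curated and 9 predicted transcripts, and that of Cd200r4 joins 1 curated and 2 predicted ones. The ends of single transcripts, exons and introns were not used here, so a site inside a span need not lie in mature mRNA. Both genes are annotated on the plus strand, with 104445 bases between their spans.

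**Figure D1:**
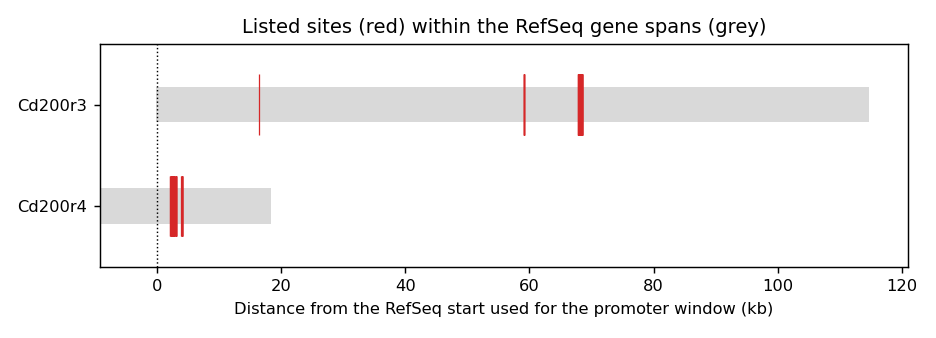
Position of the listed sites (red lines) within the RefSeq spans (grey bars) of Cd200r3 and Cd200r4, as distance in kb from the start used for the promoter window (dotted line). The 60 sites of Cd200r4 lie within 1962 bases, while the 102 sites of Cd200r3 fall at 3 separate places.

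With sites up to 500 bases apart joined into a region, Cd200r4 had 2 regions and Cd200r3 had 3. In Cd200r4 the first region held 49 sites over 1036 bases (44822859 to 44823894) and the second held 11 sites over 247 bases (44824574 to 44824820). In Cd200r3 the first was a single site at 44960174, the second held 6 sites over 52 bases (45002787 to 45002838), and the third held 95 sites over 593 bases (45011510 to 45012102). The third region of Cd200r3 thus carried 16 sites per 100 bases and its 6-site region 11.5, against 4.73 and 4.45 in the regions of Cd200r4. These densities depend on the joining distance, which bridged empty stretches in Cd200r4. Joining up to 100 bases gave 9 regions in place of 5, and the median step between sites was 4 bases in Cd200r3 and 5 in Cd200r4.

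The order of rows in the table set the regions of the genes apart as well. The last 3545 rows run in order of chromosome and position, and 42.8% of them lie inside gene spans. In the 4947 rows before them, all of which lie inside gene spans, 80 of 85 steps from gene to gene go in reverse alphabetical order of symbols. All 60 sites of Cd200r4 and the single site of the first Cd200r3 region stand in the part ordered by gene. The other 101 sites of Cd200r3 stand in the part ordered by chromosome. The sources used here do not say how the authors assigned sites to genes.

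Methylation levels were low in both genes compared with most genes of the table. In Cd200r3 the mean over its sites was 33.5% and 28.1% for technical replicates 1 and 2 of biological replicate 1, and 34.6% and 29.6% for the matching libraries of biological replicate 2. In Cd200r4 the same libraries gave 28.9%, 24.2%, 25.9% and 33.6%. The second technical replicate of biological replicate 1 was thus lowest in both genes, as it was over all other listed sites. The highest library differed between the genes. Averaged over technical replicates, Cd200r3 stood at 31.5% ± 0.916 and Cd200r4 at 28.1% ± 2.30 (SD, n = 2 biological replicates for both). All other listed sites together averaged 52.2% ± 0.130 (SD, n = 2), and their library means ran from 50% to 54.2%. Among the 53 genes with 10 or more sites, Cd200r4 ranked 6 and Cd200r3 ranked 8 from the lowest.

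**Figure D2:**
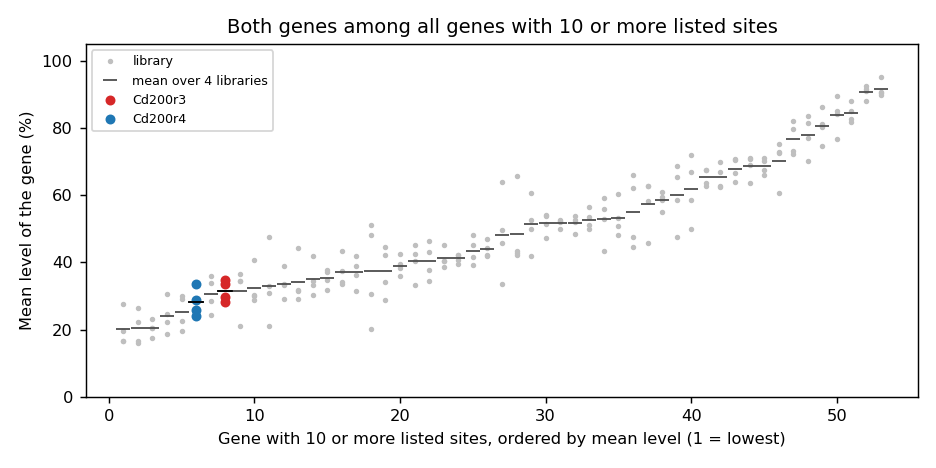
Mean level in percent (vertical axis) of each of the 53 genes with 10 or more listed sites, ordered by mean level (horizontal axis); points are the 4 Tet2-deficient libraries and ticks their mean. Cd200r4 (blue) at 28.1% and Cd200r3 (red) at 31.5% lie near the low end, and their libraries overlap.

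The paralogues were then compared within each library. Cd200r3 exceeded Cd200r4 by 4.67 and 3.96 points in biological replicate 1 and by 8.76 points in technical replicate 1 of biological replicate 2. In the remaining library Cd200r3 was lower, at -4.05 points. The mean difference was 3.34 ± 1.38 points (SD, n = 2), with Cd200r3 higher in 3 of 4 libraries, and it did not pass an exact two-sided sign-flip permutation test over biological replicates (p = 0.5, the smallest that 2 replicates allow). The difference was 14.5 points without sites that had another listed site within 10 bases, which left 4 sites in Cd200r3 and 6 in Cd200r4, and 1.43 points with each region counted once. It was -2.94 points when only sites of at least 20% in every library were kept, a filter on the compared level itself that removed 35 of 60 sites of Cd200r4 and 39 of 102 of Cd200r3.

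Single sites spread widely around these means. Site means ran from 17.5% to 49.7% in Cd200r3, with a median of 31.9%, and from 10.5% to 51.3% in Cd200r4, with a median of 26.6%. In Cd200r4, 20 sites (33.3%) averaged under 20%, compared with 8 (7.84%) in Cd200r3 and 7.76% of all listed sites. No site of either gene reached 50% in every library, a level that 33.6% of all listed sites reached. At 42 sites of Cd200r3 (41.2%) and 21 of Cd200r4 (35%) at least 1 library read 50% or more, beside 68.6% of all listed sites. The highest single readings were 69.2% and 75%. These counts describe the sites; the genes' own difference was tested only as above.

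Region levels, by library in the order used above, were 27.2%, 22.8%, 26.7% and 33.4% in the 49-site region of Cd200r4, a mean of 27.5% ± 3.56. The 11-site region of the same gene stood at 36.2%, 30.1%, 22.4% and 34.6%, a mean of 30.8% ± 3.33 (SD, n = 2 for both). These regions overlapped in range, and the library that was highest in the first was not the highest in the second. The 95-site region of Cd200r3 stood at 33.7%, 27.7%, 35.2% and 28.1%, a mean of 31.2% ± 0.665. The 6-site region stood at 31.7%, 36.1%, 26.9% and 54.7%, a mean of 37.4% ± 4.86 (SD, n = 2 for both). In those 6 sites technical replicates of biological replicate 2 gave the lowest and the highest value, so the technical spread exceeded the gap between biological replicates. The single site at 44960174 read 25%, 20%, 25% and 23.1%.

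**Figure D3:**
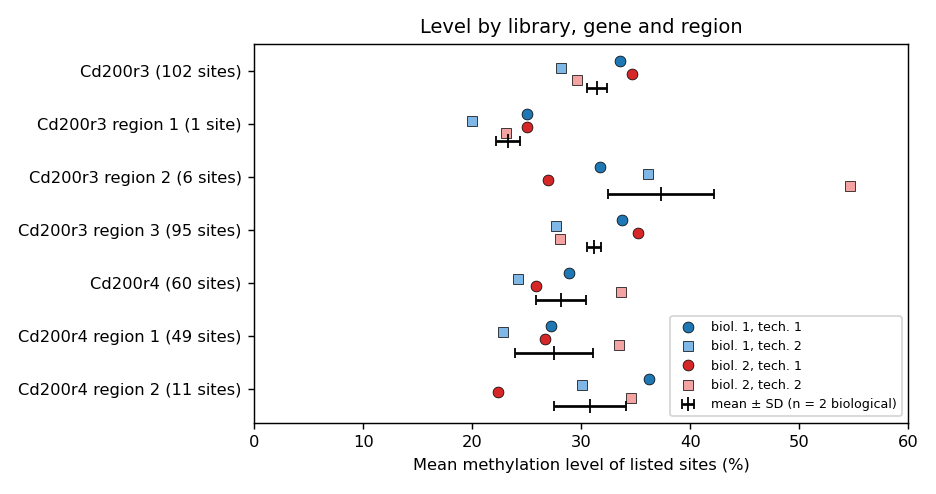
Level by gene and region (horizontal axis, mean over the listed sites, in percent) in the 4 Tet2-deficient libraries; circles are technical replicate 1, squares technical replicate 2, blue biological replicate 1 and red biological replicate 2, and the black bar is the mean ± SD over 2 biological replicates. The widest spread is that of the 6-site region of Cd200r3, from 26.9% to 54.7%.

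Inside the 49-site region of Cd200r4, levels were highest in the middle. In windows of 100 bases counted from its first site, the 4 sites at bases 101 to 200 averaged 11.8% ± 0.892 and the 4 sites at bases 301 to 400 averaged 11.9% ± 1.25, both near the lowest level listed. The 10 sites at bases 401 to 500 (44823259 to 44823358) averaged 39.2% ± 13.3, and the 11 sites at bases 501 to 600 averaged 40.6% ± 7.68. Levels then stood at 21.7% ± 8.24 over the 9 sites at bases 601 to 700 (SD, n = 2 for each). The lowest library mean of the windows at bases 401 to 600 was 26.6%, above the highest library mean of the windows at bases 101 to 400, which was 14.2%. On the other side the ranges overlapped: library means reached 28.9% at bases 601 to 700, 36.8% at the single site of bases 701 to 800 and 32.2% from base 1001 on.

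The single sites of Cd200r4 followed this shape. Its lowest sites were 44823001 at 10.5%, 44823000 at 11.1% and 44823204 at 11.6%. At 44823001 the 4 libraries read 10.7%, 10.3%, 10.2% and 10.7%, within 0.510 points of each other. The highest sites were 44823413 at 51.3%, 44823411 at 50.4% and 44823408 at 49.3%, which lie within 6 bases. At 44823413 the libraries read 42.9%, 37.5%, 50% and 75%, so both libraries of biological replicate 2 were above both of replicate 1. The widest range was at 44823262, where the readings were 57.1%, 16.7%, 33.3% and 62.5%, and technical replicates of the same biological replicate were on opposite sides.

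Averaged over the libraries, the 95-site region of Cd200r3 covered a narrower range of window means. Its windows of 100 bases averaged 35.1%, 36.2% and 36.2% over the first 300 bases, 22.7% at bases 301 to 400, and 30.5% and 27.5% after that. No window averaged as low as the windows at bases 101 to 200 and 301 to 400 of Cd200r4, while its lowest, with libraries from 17.7% to 29.3%, was level with bases 601 to 700 there. Single libraries of Cd200r3 were less even and unlike each other. Technical replicate 1 of biological replicate 2 stood at 53.5% at bases 101 to 200 and 20.9% at bases 301 to 400. In technical replicate 1 of biological replicate 1, bases 101 to 200 were lowest at 28.0% and bases 401 to 500 highest at 41.1%. The lowest sites were 45011676 at 17.5%, 45011915 at 18% and 45011793 at 18.7%. The highest were 45011723 at 49.7%, 45011687 at 46.0% and 45011721 at 45.7%. At 45011723 the libraries read 41.7%, 44.4%, 58.3% and 54.5%, while at 45011687 they read 40%, 36.4%, 69.2% and 38.5%, where 1 library accounts for the height. The site with the widest range was 45011694, from 25% to 66.7%.

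**Figure D4:**
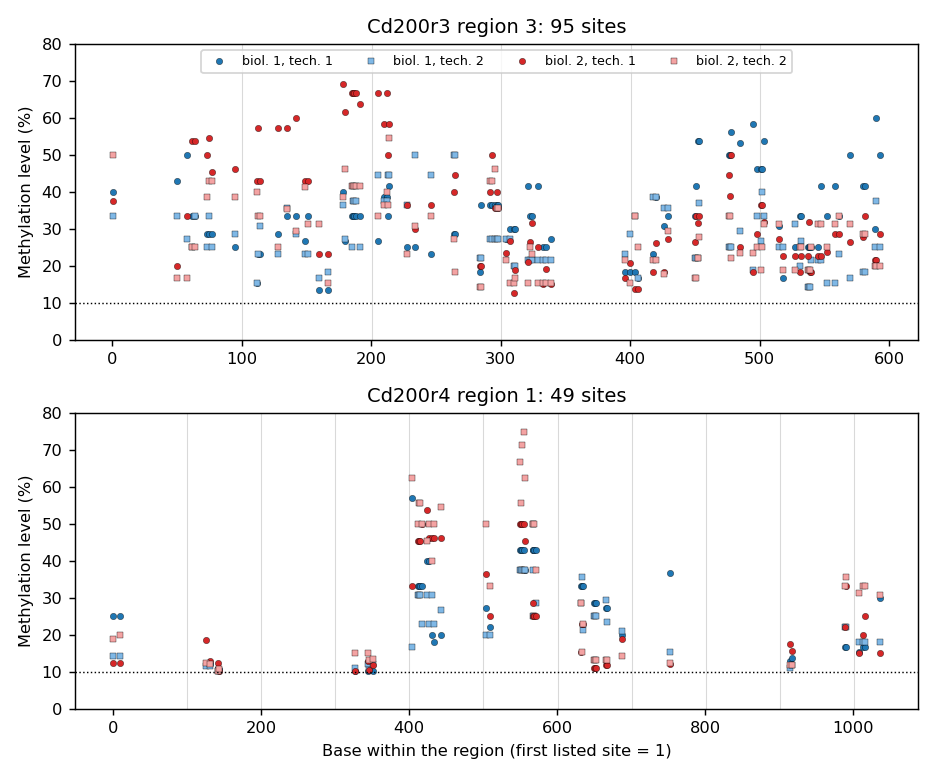
Level in percent (vertical axis) of each listed site against its base within the region (horizontal axis, first site = 1), for the 95-site region of Cd200r3 (top) and the 49-site region of Cd200r4 (bottom); colours and shapes mark the 4 libraries, grey lines the windows of 100 bases and the dotted line the 10% minimum of the table. In Cd200r4 the windows at bases 401 to 600 rise to about 40% from about 12% in the windows at bases 101 to 200 and 301 to 400, and stand at 21.7% in the window after them; in Cd200r3 the first technical replicate of biological replicate 2 averages 53.5% at bases 101 to 200.

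In some windows of the same region, biological replicates differed in opposite directions. In Cd200r3, the 17 sites at bases 101 to 200 of the 95-site region averaged 28.0% and 27.3% for biological replicate 1, below the 53.5% and 35.8% of replicate 2. From bases 301 to 400 the order was turned, with 29.3% and 22.8% in replicate 1 and 20.9% and 17.7% in replicate 2. Bases 401 to 500 likewise gave 41.1% and 28.6% in replicate 1, above 27.9% and 24.5% in replicate 2. In none of these windows did the replicates overlap.

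In Cd200r4 the order of the replicates also turned between windows. At bases 401 to 500 of its 49-site region replicate 1 stood at 32.9% and 26.6%, below 45.8% and 51.4% in replicate 2. At bases 601 to 700 replicate 1 stood at 28.9% and 26.1%, above 15.2% and 16.4% in replicate 2. Of the 11 windows with 5 or more sites in the genes, 5 did not overlap between biological replicates, beside 31.3% of the 619 such windows of the whole table. When the second number of the column names was read as the biological replicate, 3 of the 11 windows did not overlap, beside 30.2% of all windows; all 3 were in Cd200r3, and 0 of the 4 windows of Cd200r4 were without overlap, against 2 of 4 with the first reading. No test was made of these shares.

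Counted by site, 42 of 102 sites of Cd200r3 (41.2%) did not overlap between biological replicates, 23 with replicate 1 higher and 19 with replicate 2 higher. The share over all listed sites was 30.4%. In Cd200r4 the count was 31 of 60 sites (51.7%), 10 with replicate 1 higher and 21 with replicate 2 higher, beside 14.7% and 15.7% over all listed sites. Close sites moved together, so neighbouring sites are not separate observations and no test was made of these shares. With the other reading of the column names, 29 sites of Cd200r3 and 8 of Cd200r4 did not overlap, beside 26.3% of all sites.

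Sites crowded in both genes. Of the Cd200r3 sites 98 (96.1%) and of the Cd200r4 sites 54 (90%) had another listed site within 10 bases. Pairs 1 to 10 bases apart numbered 171 among the 102 sites of Cd200r3 and 67 among the 60 of Cd200r4. All 8492 listed sites held 13767 such pairs. The share of all listed sites with such a neighbour is not given here, so crowding was not shown to be particular to these genes. In Cd200r3 29 sites directly followed another listed cytosine, with runs of up to 4 consecutive positions. In Cd200r4 this held for 9 sites, with a longest run of 3. The median step from site to site was 4 bases in Cd200r3 and 5 in Cd200r4. Pairs of sites 1 to 10 bases apart had exactly the same level in a library in 30.4% of comparisons in Cd200r3 and 39.6% in Cd200r4 (33.2% over the table, equal within a millionth of a point).

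As a description, the deviations of each site from its mean level correlated at 0.740 between sites 1 to 10 bases apart in Cd200r3 (171 pairs) and at 0.767 in Cd200r4 (67 pairs). At 51 to 150 bases they correlated at 0.317 and 0.134. All pairs share the same 4 libraries, and close pairs can share reads. Levels of library pairs correlated across the sites of Cd200r3 with Pearson's r from 0.00206 to 0.498 and across those of Cd200r4 from 0.464 to 0.871, compared with 0.759 to 0.801 across all listed sites. Sites within a gene are not independent, and the levels of Cd200r3 cover a narrow range. The mean absolute difference between libraries was 10.8 points between technical replicates and 12.2 points between biological replicates in Cd200r3, and 8.46 and 11.6 points in Cd200r4. Over all listed sites both kinds of pair differed by 13.5 points.

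The genes most like Cd200r3, by the mean absolute difference of gene means over the 4 libraries, were Cflar at 2.71 points, Gm36408 at 3.82 points and Cyp4a12a at 3.82 points. Cflar, which encodes an inhibitor of caspase-8, had 78 sites at 33.7% ± 0.356. Those most like Cd200r4 were Ulbp1 at 2.57 points, Tbc1d9b at 4.93 points and Cyp4a12a at 5.04 points. Ulbp1, a ligand of the activating receptor NKG2D, averaged 30.7% ± 2.09 over 226 sites (SD, n = 2 for both). The paralogues themselves were not among each other's 3 nearest genes.

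Other genes of the CD200 receptor pathway had no listed site. Of 19 genes in that list, only Cd200r3 and Cd200r4 had sites, and these were included with their sites known. Over all annotated genes, 110 (0.22%) had a listed site. The ligand gene Cd200, the inhibitory receptor gene Cd200r1 and Cd200r2 had 0, although Cd200r1 and Cd200r2 flank Cd200r4. The adaptor Tyrobp and the kinase Syk had 0 as well. Of 14 other inhibitory or activating receptors of mast cells, 1 had sites inside its span: Cd300lf, a lipid-sensing receptor of the CD300 family. Its 3 sites, on chromosome 11, averaged 41.5% ± 3.22 (SD, n = 2). That span (115116214 to 115135372) lies wholly within the span of Rab37 (115091331 to 115162773), so the same 3 sites count for both genes. Strand was not analysed, so these sites cannot be assigned to Cd300lf rather than Rab37. Of 12 mast cell markers, Il1rl1 with 445 sites and Cpa3 with 1 site had any, and none of the basophil, macrophage, neutrophil, B cell or T cell markers did. Expression was not analysed here. Genes that lack listed sites may have had too few reads, levels under 10% or sites the authors did not select, and these cases cannot be told apart.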

How the data were processed

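The 4 Tet2-deficient RNA bisulfite libraries were analysed. Per the labels' protocols, DNase-treated poly(A) RNA was converted together with 0.5% unmethylated lambda RNA and sequenced as stranded paired-end libraries of 150 bases. The submitters' processing notes name mm10 and GRCm38; the sources used here do not give the aligner, site caller, coverage minimum or conversion rate. The deposited values are, per the file headers, methylation rates, a fraction per site and library, printed here as percent. Columns were matched to samples by reading the first number as the biological replicate.

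Sites were assigned to gene spans of RefSeq GRCm38.p6. Technical replicates were averaged before the mean and SD over 2 biological replicates. Regions joined sites up to 500 bases apart. Windows held 100 bases, and those with under 5 sites were not counted. Upstream windows (250 bases, for Cd200r3 only to its span's first base) were aligned locally (match 2, mismatch -3, gap -5 and -2). The members and lists were chosen with earlier results of these data known. Named by rule were both genes, listed members with sites, the 3 most like genes, and the 3 highest and lowest sites of each gene; the sites of widest range, the windows and the Cd200r2 comparison were chosen once values had been seen. The planned test between genotypes was not run, since wild-type levels were not analysed. The calculations were tested on simulated data. Alternatives were site filters, medians, weighting by region, column reading and leaving out a replicate. Depth is unknown. Python 3.11.15, numpy 2.4.6, pandas 2.3.3, biopython 1.88 and matplotlib 3.10.9 were used.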

Additional observations from a re-analysis of the deposited data

Results flagged for a closer look

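In 6 of 50 values checked, 1 library stood far from the remaining 3. Chance gives about 1 in 20 for values not picked by their level. Many of these values share sites, and some were checked because their levels had picked them. The count can therefore not be set against that share. Over the sites of both genes together, technical replicate 2 of biological replicate 1 was lowest at 26.7%, with the other libraries between 31.1% and 31.8%. The same library was lowest in Cyp4a12a, at 21.0%, but that gene was picked because its library means lay close to those of these genes. Over all other listed sites of the table it was lowest too, at 50%, close to 50.3% in technical replicate 1 of biological replicate 2. In the 49-site region of Cd200r4, the single site at bases 701 to 800 read 36.8% in technical replicate 1 of biological replicate 1 and 12.1% to 15.4% elsewhere. The 4 sites from base 1001 on averaged 32.2% in technical replicate 2 of biological replicate 2 and 18.2% to 19.7% elsewhere. In Cd200r3, technical replicate 1 of biological replicate 2 was highest at 45011687, at 69.2%, and at 45011721, at 66.7%. Both sites were checked for their high mean, to which that library contributes.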

How the results depend on the processing

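The Cd200r3 level of 31.5% became 33.1% without clustered sites (4 sites left), 35.7% over the 63 sites of at least 20% in every library and 29.7% as a median over sites. The Cd200r4 level of 28.1% became 18.6% without clustered sites (6 sites left) and 38.7% over its 25 sites of at least 20%. Their difference of 3.34 points reversed to -2.94 points with the 20% minimum, a filter on the compared level that drops 35 of 60 Cd200r4 sites; it was 14.5 points without clustered sites, 2.63 as medians, 1.43 with each region counted once and 3.65 for the longest region of each gene, an alternative chosen after seeing the data. Leaving out a replicate gave 30.8% to 32.1%, 26.5% to 29.8% and 2.36 to 4.32 points; with 2 replicates this says nothing about stability. Reading the column names the other way left the means and changed the SDs to 3.69, 1.09 and 4.78 points, and the Cd200r4 sites that did not overlap from 31 to 8. Joining sites up to 100 bases gave 9 regions in place of 5. Merging adjacent positions left 73 and 51 sites, and spans extended by 1 kb added none. No paired analysis was possible because pairing by replicate number concerns the genotypes, and wild-type levels were not analysed; the paralogues were compared within libraries. The restriction to exons was not run. With no read numbers, the limits set by depth are unknown.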
